A study of Mus musculus with 12 samples.

Results

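The genes described here encode hormones and regulatory peptides of the pancreatic islet and of gut endocrine cells. They are Ins2, Iapp, Gcg, Sst, Ppy, Pyy, Cartpt, Cck, Gip and Gast, chosen by name, with earlier results of these data known. These 10 genes, of 12393 with a symbol of their own on the array, were read by 13 of 22690 probe sets, sets of short probes designed against the transcripts of a gene. Iapp had 4 probe sets and every other gene had 1. RNA came from cultures of aTC1, a mouse alpha cell line, and bTC3, a mouse beta cell line, both grown from islet tumours of transgenic mice. The tumours were driven by SV40 large T antigen, to which p53 binds, and each line is named for the hormone cell it resembles, glucagon cells for aTC1 and insulin cells for bTC3. Each line was treated for 5 days with 3.3 µM GW8510, a compound described as a likely inhibitor of the kinase CDK2, or with its vehicle alone. DMSO was at 0.1% in all 4 groups, each of which had 3 biological replicates. The labels do not name the clone of either line, and the growth conditions they give name aTC1 alone.

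Islet hormones are made as prohormones, cut by prohormone convertases and stored in secretory granules. Insulin and amylin (Iapp) are released together by beta cells, glucagon (Gcg) by alpha cells, somatostatin (Sst) by delta cells and pancreatic polypeptide (Ppy) by PP cells. Gastrin (Gast) is made by G cells of the stomach and, in the embryo, by cells of the pancreas. Peptide YY, cholecystokinin and GIP are best known from gut endocrine cells, and Cartpt encodes the cocaine- and amphetamine-regulated transcript peptide. Tumour-derived islet lines often make more than 1 hormone.

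In alpha cells, GW8510 raised Ins2 1.56-fold and Iapp 2.73- to 3.75-fold on 3 probe sets, and lowered Cartpt 7.06-fold. The 3.75-fold rise began at 27.4 to 32.9, close to 20, the lowest value in the data. The fourth Iapp probe set, at 20 with DMSO, did not pass. In beta cells, Gcg rose 1.87-fold and Cartpt fell 1.47-fold (0.56 on the log2 scale). That fall of Cartpt did not pass in 5 of 23 other settings of the analysis. The hormone that defines each line could not be followed in that line, since Gcg in alpha cells and Ins2 in beta cells lay at 20000, the highest value in the data, in both groups. Sst and Gast were bright only on the beta arrays, at 260-fold and 60.2-fold over the alpha arrays with DMSO. Ppy, Cck and Gip did not pass the test in either line, and Pyy passed in alpha cells by a narrow margin.

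All values are linear intensities between 20 and 20000, the lowest and highest values in the data. A group with its 3 arrays at either end has only a limit, and a fold from it is written as "at least". Of the 13 probe sets, 6 had at least 1 group at 20000 and 1 had a group at 20, and 33 of the 156 single values were at 20000. Differences were tested on the log2 scale with 1 limma fit to the 12 arrays, and p-values were adjusted by Benjamini-Hochberg over 22175 probe sets. The threshold was an adjusted p under 0.05. The deposited values hold no probe-level counts, so the number of arrays limits the precision. Intensities of different probe sets are not comparable as amounts of RNA. In these bulk cultures, fewer cells of a type and less RNA per cell cannot be told apart.

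**Figure D1:**
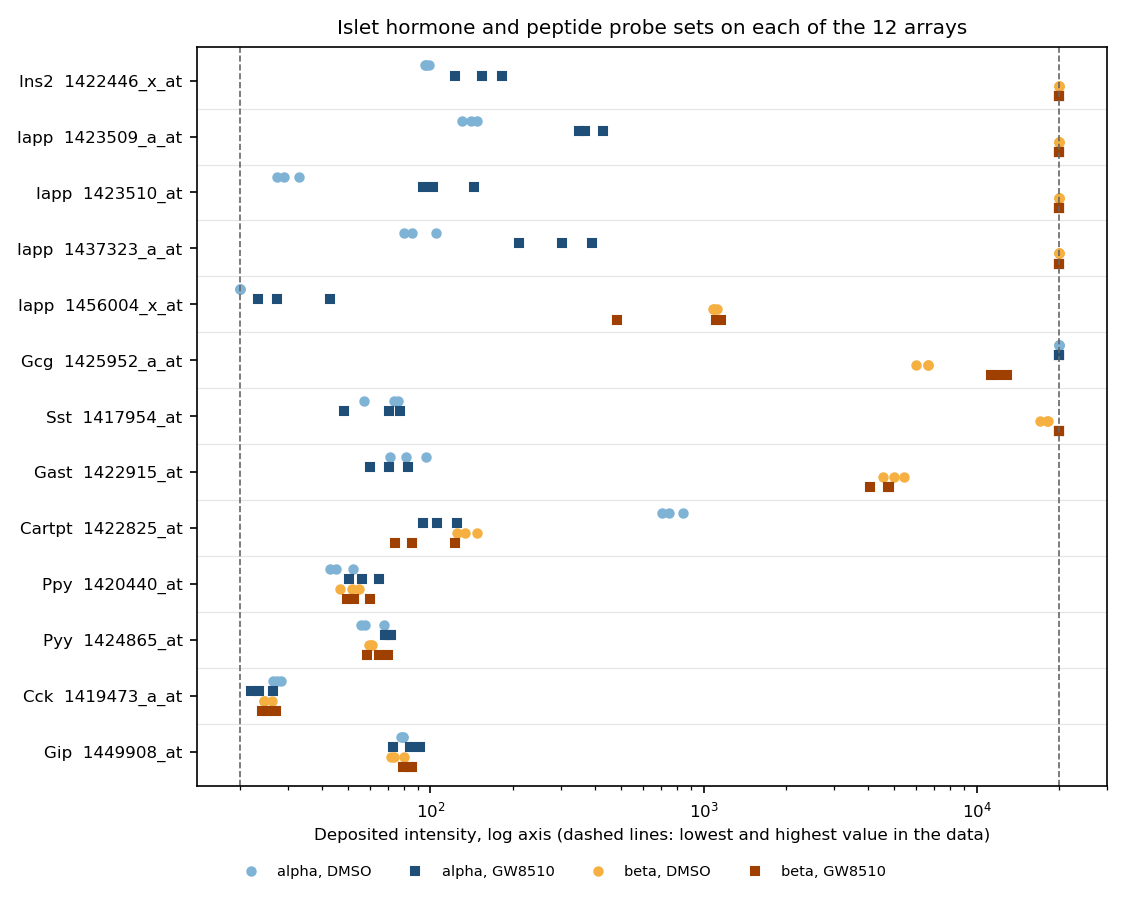
Deposited intensity (log axis) of each of the 13 probe sets, with 1 point for each array of alpha cells (blue) and beta cells (orange), DMSO as circles and GW8510 as squares; dashed lines mark 20 and 20000. Ins2 and 3 Iapp probe sets lie at 20000 in beta cells and Gcg lies at 20000 in alpha cells, while Cartpt of alpha cells drops from 703 to 842 with DMSO to 94.1 to 125 with GW8510.

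The arrays of a group were alike, with Pearson correlations across all probe sets of 0.9942 to 0.9984. The lowest belonged to GW8510 replicate 1 of alpha cells. GW8510 replicate 3 of beta cells was brighter than the rest, with a median of 199.9 against 173.7 to 182.0 on the other 11 arrays. The labels fit the markers in part. All 6 beta cell markers on the array were brighter in bTC3. Their summed intensity was 2338 to 2469 in alpha cells with DMSO and at least 53647 to 54977 in beta cells with DMSO, where Ins2 and Iapp, both members, were at 20000. The other 4 with DMSO averaged 70.8 and 3276 (Pdx1), 423 and 1042 (Nkx6-1), 23.9 and 87.5 (Slc2a2) and 1629 and 9799 (G6pc2) in alpha and beta cells in turn. Of 6 alpha cell markers, 4 were lower in bTC3 with DMSO. With DMSO the alpha transcription factor Irx1 averaged 2084 in aTC1 and 28.2 in bTC3. In contrast, Ttr was at 20000 on all beta arrays and averaged 8351 in alpha cells with DMSO.

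The 100 bases before the start site are shown for 5 genes because these carried the clearest values, high in 1 line or changed by GW8510. The sequences are RefSeq's on GRCm38.p6, on the gene's own strand, and 9 of the 10 genes were matched, all but Ins2. Capitals mark TATAA, the core of a TATA box, TGACGTCA, the cyclic AMP response element, and TAAT, the core that homeodomain factors such as Pdx1 bind, each on either strand.
Gcg (chr2:62483654-62483753, minus strand): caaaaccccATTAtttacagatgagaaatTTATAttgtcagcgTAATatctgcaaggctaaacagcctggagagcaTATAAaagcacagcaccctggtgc
Iapp (chr6:142298325-142298424, plus strand): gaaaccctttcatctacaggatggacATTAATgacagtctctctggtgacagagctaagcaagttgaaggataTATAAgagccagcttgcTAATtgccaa
Sst (chr16:23890845-23890944, minus strand): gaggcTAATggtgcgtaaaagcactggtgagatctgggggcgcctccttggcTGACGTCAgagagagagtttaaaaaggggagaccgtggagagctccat
Gast (chr11:100334307-100334406, plus strand): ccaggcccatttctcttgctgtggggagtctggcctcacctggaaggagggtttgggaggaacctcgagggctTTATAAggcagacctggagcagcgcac
Cartpt (chr13:99900684-99900783, minus strand): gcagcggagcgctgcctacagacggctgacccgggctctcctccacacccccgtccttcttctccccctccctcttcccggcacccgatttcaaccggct
TATAA was found in 6 of the 9 windows (Gcg, Iapp, Gast, Ppy, Pyy and Gip), against 10.2% of 32851 promoter windows of the same length. TAAT was found in 4 (Gcg, Iapp, Sst and Gip), against 27.3% of windows, and TGACGTCA in 1 (Sst), against 1.15%. In Gast and Iapp, matches to 1 motif on both strands overlap each other, and no match to 1 motif overlapped a match to another. The windows of Cartpt and Cck held none of these letters. A match is a description of the sequence, not a bound site.

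Ins2 encodes insulin 2. In alpha cells with DMSO its intensity was 98.8, 96.5 and 95.2 (96.8 ± 1.82, SD, n = 3). With GW8510 it was 123, 154 and 182 (153 ± 29.4, SD, n = 3). Every GW8510 array lay above every DMSO array, and the GW8510 arrays were further apart from each other than the DMSO arrays were. The change was 0.64 on the log2 scale (SE 0.11) with an adjusted p of 4.25e-04. All 6 beta arrays were at 20000, so those groups had no measured spread, which lowered the estimate of error in the fit of 12 arrays. With the alpha arrays alone the adjusted p was 0.0139, and with the values at 20 or 20000 also taken as missing it was 0.00802. The beta arrays with DMSO exceeded the alpha arrays at least 207-fold, and with GW8510 at least 132-fold. With each array left out in turn the log2 change ran from 0.51, without GW8510 replicate 3 of alpha cells, to 0.79, without GW8510 replicate 1, the array least like the rest of its group. The Ins2 probe set is of the _x_at kind, which can also bind related transcripts, and the share of such binding in the signal was not tested.

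Iapp encodes amylin, which beta cells release with insulin. On its first probe set (1423509_a_at), alpha arrays read 140, 148 and 131 with DMSO and 367, 350 and 429 with GW8510. The lowest array with GW8510 thus stood well above the highest with DMSO. The log2 change was 1.45 (SE 0.07), or 2.73-fold, with an adjusted p of 3.47e-08. All beta arrays of this probe set were at 20000, without measured spread, which lowered the estimate of error in that fit. With the alpha arrays alone the SE was 0.09 and the adjusted p was 1.28e-04.

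The other probe sets of Iapp moved the same way. Intensity on 1423510_at went from 29.2, 32.9 and 27.4 to 94.2, 102 and 144, a log2 change of 1.91 (SE 0.13, adjusted p 3.04e-07). On 1437323_a_at it went from 79.8, 105 and 85.3 to 210, 303 and 389, a log2 change of 1.71 (SE 0.17, adjusted p 9.47e-06). DMSO and GW8510 arrays did not overlap on either. The beta arrays of both were also all at 20000, which lowered the estimate of error in the same way. With the alpha arrays alone the adjusted p was 4.20e-04 on 1423510_at and 0.00236 on 1437323_a_at.

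The fourth, 1456004_x_at, was at 20 on all 3 alpha arrays with DMSO and at 27.4, 23.3 and 42.8 with GW8510. Its rise was at least 1.51-fold and did not pass (adjusted p 0.143), although the arrays did not overlap. It passed in 1 of 19 other settings, without GW8510 replicate 3 of beta cells, whose value on this probe set stood apart (adjusted p 0.0206). Without GW8510 replicate 3 of alpha cells the log2 change was 0.34 in place of 0.59 (adjusted p 0.407). GW8510 replicate 3 of alpha cells gave the highest value on Ins2 and on all 4 Iapp probe sets.

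In beta cells, 3 of the 4 Iapp probe sets were at 20000 on all arrays, at least 143-fold, 673-fold and 224-fold above alpha cells with DMSO. With GW8510 the same limits were 52.5-fold, 179-fold and 68.6-fold. Only 1456004_x_at was measured within the range there, at 1095, 1082 and 1122 with DMSO and 1115, 1160 and 483 with GW8510. The groups overlapped, and replicate 3 with GW8510 was the lowest of the 6. The log2 change was -0.36 (adjusted p 0.391, 95% interval -1.01 to 0.28) and 0.05 without that array.

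**Figure D2:**
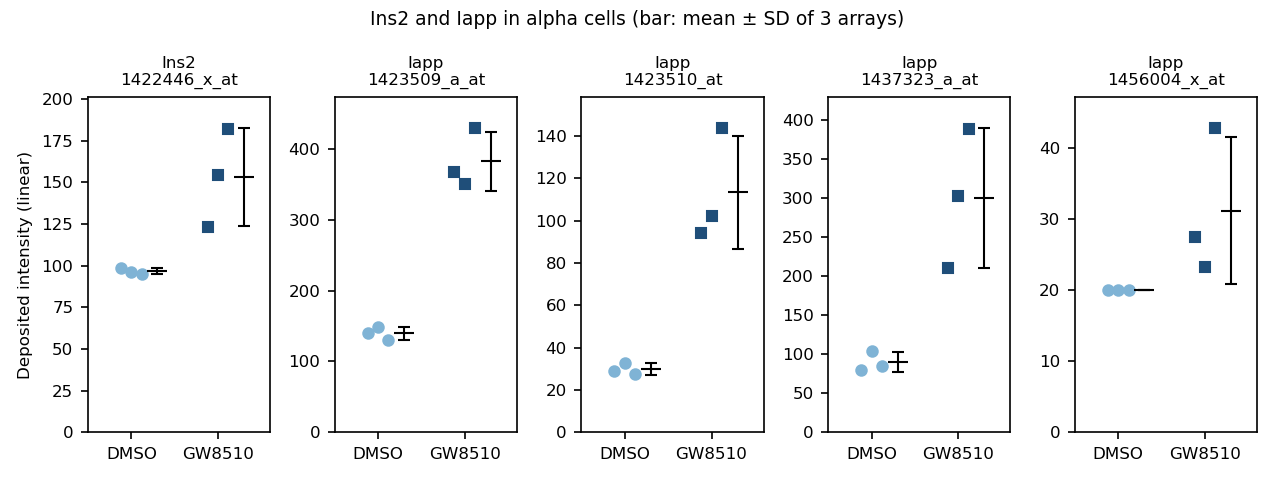
Intensity (linear axes from 0, own scale in each panel) of Ins2 and of the 4 Iapp probe sets on the alpha arrays with DMSO (circles) and GW8510 (squares), with the mean ± SD of 3 arrays in black. In each panel the lowest GW8510 array is above the highest DMSO array, and on 1456004_x_at the DMSO arrays are at 20, the lowest value in the data.

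Gcg encodes proglucagon, the precursor of glucagon and of the incretin GLP-1. All 6 alpha arrays were at 20000, so no effect of GW8510 on it could be read in alpha cells. In beta cells Gcg was 6647, 6616 and 5997 with DMSO (6420 ± 367, SD, n = 3) and 11927, 11305 and 12890 with GW8510 (12041 ± 798, SD, n = 3). The GW8510 arrays were all well above the DMSO arrays. The log2 change was 0.91 (SE 0.06), with an adjusted p of 1.0e-06 in the fit of 12 arrays. The alpha arrays, all at 20000, had no measured spread, which lowered the estimate of error in that fit. The adjusted p was 5.08e-05 with the values at a limit taken as missing and 6.44e-04 with the beta arrays alone. Without GW8510 replicate 3 of beta cells, the brighter array, the log2 change was 0.86. Alpha cells exceeded beta cells at least 3.12-fold with DMSO and at least 1.66-fold with GW8510.

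Alpha cell markers other than Gcg were read beside this result. Irx1 averaged 28.2 in beta cells with DMSO and 34.7 with GW8510, and Irx2 274.7 and 293. Pou3f4 averaged 86.7 and 88.5. None of these 3 passed in beta cells, and on the alpha arrays with DMSO they were at 2084, 1881 and 520. The amino acid transporter Slc38a5 rose in beta cells with GW8510, from 52.1 to 109, a log2 change of 1.04 (adjusted p 1.63e-04). It averaged 43.0 in alpha cells with DMSO. The summed intensity of the 6 alpha markers on the array, Gcg among them, was at least 26420 to 27107 in beta cells with DMSO and 31820 to 33442 with GW8510, Ttr being at 20000 in both. The part of these markers in the rise of Gcg was not tested.

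Sst encodes somatostatin, the inhibitory hormone of delta cells. Its intensity in alpha cells was 73.5, 76.3 and 57.3 with DMSO and 48.3, 77.3 and 70.7 with GW8510, with overlapping arrays (log2 change -0.09, adjusted p 0.685). In beta cells it was 18296, 17084 and 18078 with DMSO and at 20000 on all 3 arrays with GW8510. The rise was at least 1.12-fold and did not pass in the fit of 12 arrays (adjusted p 0.453). The arrays did not overlap. It passed in 1 of 21 other settings, with the beta arrays alone (adjusted p 0.0412), where the GW8510 arrays, all at 20000, added no spread. Over these settings the adjusted p reached 0.646. Beta cells exceeded alpha cells 260-fold with DMSO (adjusted p 1.97e-12) and at least 312-fold with GW8510.

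The other delta cell markers on the array were Hhex and Rbp4. Hhex, a transcription factor of delta cells, averaged 39.9 in beta cells with DMSO and 44.1 with GW8510. It rose in alpha cells from 45.9 to 93.4, a log2 change of 1.02 (adjusted p 1.17e-06), where Sst did not pass. Rbp4, a retinol carrier, rose in beta cells from 2522 to 4038, a log2 change of 0.68 (adjusted p 1.06e-05). In alpha cells it fell by 0.38 on the log2 scale (adjusted p 4.61e-04), from 12247 to 9429.

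Gast encodes gastrin. In alpha cells it was 71.3, 96.1 and 81.5 with DMSO and 70.2, 82.8 and 59.8 with GW8510. In beta cells it was 4972, 4541 and 5410 with DMSO and 4770, 4732 and 4082 with GW8510. In each line the 2 groups overlapped, and the log2 changes of -0.23 (adjusted p 0.213) and -0.14 (adjusted p 0.484) did not pass. Their 95% intervals ran from -0.52 to 0.06 and from -0.43 to 0.15. Beta cells exceeded alpha cells 60.2-fold with DMSO (adjusted p 7.51e-12) and 64.2-fold with GW8510. Secretin (Sct), a gut hormone of the same marker list, was also higher in beta cells, at 3166 against 188 with DMSO, and fell in beta cells with GW8510 by 0.42 (log2, adjusted p 0.0139).

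Cartpt encodes a peptide of neurons and of some islet cells. In alpha cells with DMSO its intensity was 703, 744 and 842 (763 ± 71.1, SD, n = 3). With GW8510 it was 106, 125 and 94.1 (108 ± 15.7, SD, n = 3). No array of one group came near the other. The log2 change was -2.82 (SE 0.16, 95% interval -3.18 to -2.46, adjusted p 9.52e-08).

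In beta cells Cartpt was 148, 126 and 133 with DMSO and 85.3, 74.3 and 123 with GW8510. The arrays did not overlap, although replicate 3 with GW8510 nearly reached the lowest DMSO array. The log2 change was -0.56 (SE 0.16, adjusted p 0.0228). Without GW8510 replicate 3 of beta cells it was -0.77 (adjusted p 0.0014). It did not pass with the beta arrays alone (adjusted p 0.0773), nor without replicate 1 or 3 with DMSO (0.0841 and 0.0500248) or replicate 1 or 2 with GW8510 (0.0766 and 0.0875). The change differed between the lines by 2.26 on the log2 scale (SE 0.23, adjusted p 2.68e-05), with the larger fall in alpha cells. With DMSO, Cartpt was 5.62-fold lower in beta cells than in alpha cells (adjusted p 7.51e-08). With GW8510 the lines overlapped, at a log2 difference of -0.23 (adjusted p 0.275). This difference passed in 2 of 21 other settings. It was -0.44 without GW8510 replicate 3 of beta cells (adjusted p 0.0144) and -0.55 with array weights (adjusted p 8.67e-04).

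Pyy and Ppy, relatives of neuropeptide Y, were dim in both lines. Pyy in alpha cells was 55.7, 67.8 and 57.4 with DMSO and 71.2, 71.9 and 68.5 with GW8510, and the arrays just failed to overlap. Its log2 change of 0.23 (SE 0.08) had an adjusted p of 0.0421, and it did not pass in 14 of 23 other settings. Over all of these the adjusted p ranged from 0.00672 to 0.159. In beta cells the log2 change was 0.09 (adjusted p 0.457).

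Ppy in alpha cells was 45.0, 42.7 and 52.0 with DMSO and 50.2, 64.6 and 56.0 with GW8510, with overlap and an adjusted p of 0.059. It did not pass in 19 of 22 other settings, with adjusted p up to 0.219. It passed with array weights (2.46e-04) and without DMSO replicate 3 or GW8510 replicate 1 of alpha cells (0.0302 and 0.0248). In beta cells the log2 change was 0.08 (adjusted p 0.644).

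Cck and Gip stayed low. Cck in alpha cells was 28.4, 27.5 and 26.4 with DMSO and 26.6, 22.0 and 23.5 with GW8510, close to the lower end of the data. The adjusted p was 0.0615, and Cck did not pass in 18 of 22 other settings, with adjusted p up to 0.226. Without GW8510 replicate 1 of alpha cells it was 0.00845, and 0.0497 without GW8510 replicate 3 of beta cells. In beta cells Cck lay between 24.2 and 27.3 on all arrays. Gip lay between 71.7 and 91.3 on all 12 arrays, with log2 changes of 0.06 in alpha cells (adjusted p 0.583) and 0.14 in beta cells (adjusted p 0.205). Neither these genes nor Ppy or Pyy differed between the lines at the threshold with DMSO.

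**Figure D3:**
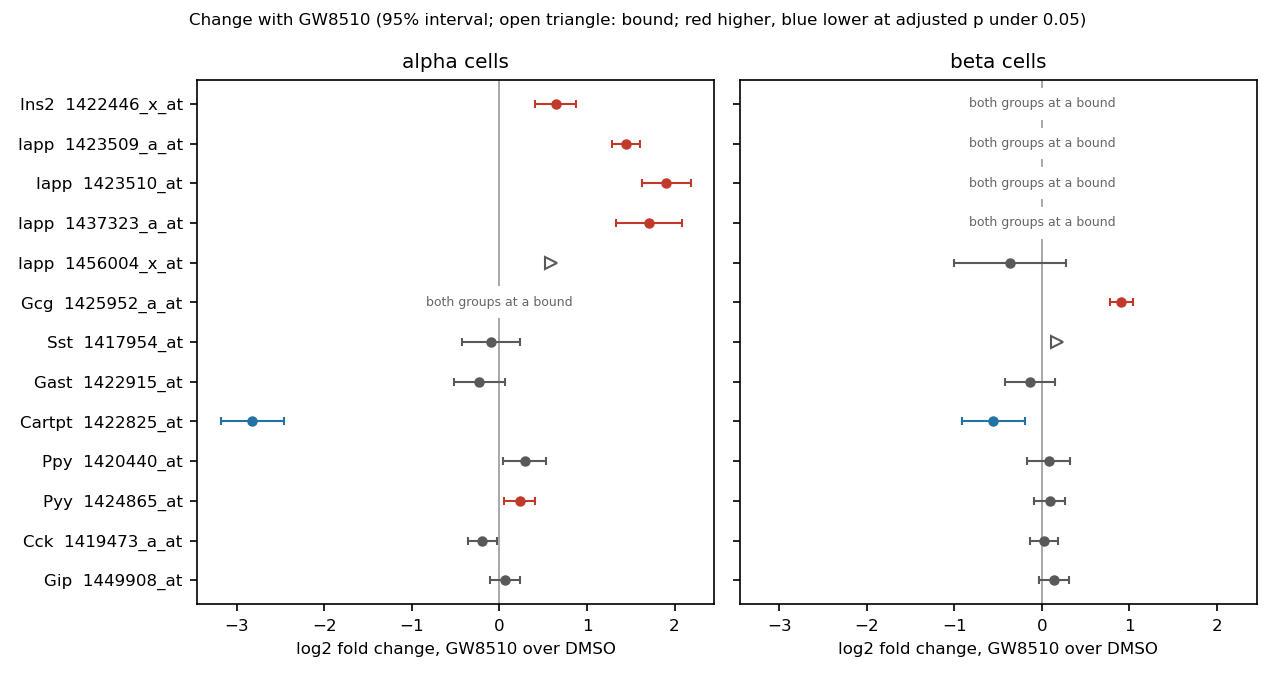
Change of each probe set with GW8510 over DMSO in alpha cells (left) and beta cells (right), as log2 fold change with its 95% interval from the fit of 12 arrays; red is higher and blue lower at an adjusted p under 0.05, and an open triangle marks a limit. Ins2, 3 Iapp probe sets and Pyy rose in alpha cells, Gcg rose in beta cells, and Cartpt fell by 2.82 in alpha cells and by 0.56 in beta cells.

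Counted over genes, 9 of the 10 could be read in alpha cells. Of these, 3 were higher (Ins2, Iapp and Pyy), against 18.3% of all probe sets tested, 1 was lower (Cartpt), against 20.2%, and 5 did not pass. In beta cells 9 genes could be read, and 1 was higher (Gcg), against 18% of all probe sets, 1 lower (Cartpt), against 13.4%, and 7 did not pass. A gene was counted as higher or lower if any of its probe sets passed, whereas the shares are of single probe sets. With so few genes and unlike units, these counts are not read as a result about the set. The median log2 change of the probe sets read was 0.26 in alpha cells and 0.08 in beta cells, beside medians of 0.02 and 0.06 over all probe sets. These medians are over probe sets, not genes. In alpha cells Iapp entered with each of its probe sets, all with positive changes, so the value there is not read as a shift of the genes. The difference of the effect between the lines could be read for 6 genes, and 1 of these (Cartpt) passed, against 25.3% of all probe sets in either direction.

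Between the lines, 4 genes were higher in beta cells with DMSO (Ins2, Iapp, Sst and Gast), against 25.3% of all probe sets, and 2 were lower (Gcg and Cartpt), against 29.1%. With GW8510 the same 4 were higher, against 28.7%, and 1 was lower (Gcg), against 27.2%. The comparisons in alpha cells, in beta cells and between lines share their arrays. Culture and handling of the lines cannot be told apart from the lines themselves.

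Markers of alpha cells and of other cell types were read beside the rises in alpha cells. The summed intensity of the 6 alpha markers was at least 32275 to 33394 with DMSO. It was at least 43364 to 43719 with GW8510, Gcg being at 20000 in both. Of the 5 other than Gcg, 2 rose, against 18.3% of all probe sets, 2 fell, against 20.2%, and 1 did not pass. The rises were Ttr, from 8351 to 19884 and so close to 20000, and Pou3f4, and the falls were Irx1 and Irx2. The summed intensity of the 6 beta markers went from 2338 to 2469 with DMSO to 2950 to 3249 with GW8510. Of the 6, 3 rose (Ins2, Iapp and Pdx1), against 18.3% of all probe sets. The glucose transporter Slc2a2 averaged 23.9 with DMSO and 22.4 with GW8510 in alpha cells. The summed leukocyte markers went from 274 to 285 to 857 to 937, through Cd68, a lysosomal protein of macrophages, at 61.6 and 655, and the T cell gene Cd3e, at 118 and 149. The pan-leukocyte gene Ptprc was at 20 with DMSO and 21.2 with GW8510. Summed duct markers went from 1046 to 1091 to 2418 to 2504, through keratin 7 (Krt7), with the other 3 of 4 not passed. Summed acinar markers went from 611 to 643 to 810 to 900, through Cela1. Summed fibroblast markers (Lum at 20 throughout) were 296 to 321 and 282 to 350. Summed endothelial markers were 167 to 178 and 171 to 252. Their part in the rises of Ins2 and Iapp was not tested.

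In beta cells the same sums with DMSO and with GW8510 were 225 to 243 and 243 to 307 for leukocytes, 364 to 380 and 502 to 564 for duct, 214 to 244 and 289 to 319 for acinar, 332 to 387 and 470 to 583 for fibroblast and 140 to 163 and 146 to 183 for endothelial markers. Ptprc was at 20 on all beta arrays. In the same order, summed beta cell markers were at least 53647 to 54977 and 57022 to 59068, Ins2 and Iapp being limits. Summed delta cell markers were 19517 to 20837 and at least 23914 to 24415, and gut endocrine markers 7688 to 8923 and 6726 to 7311. Of the 4 beta markers that could be read, 1 rose (Slc2a2), 2 fell (Pdx1 and Nkx6-1) and 1 did not pass. Slc2a2 averaged 87.5 with DMSO and 3037 with GW8510, a log2 change of 5.12 (adjusted p 2.02e-12). Their part in the rise of Gcg was not tested.

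Transcription factors that act on hormone genes were read from a list of 32, of which 25 were on the array. In alpha cells 3 rose, against 18.3% of all probe sets, 8 fell, against 20.2%, and 14 did not pass. The median log2 change was -0.15. The counts of this list and of those below are not read as results about the lists. Pdx1, which binds the insulin and amylin promoters, rose from 70.8 ± 4.73 to 374 ± 21.9 (SD, n = 3), a log2 change of 2.40 (adjusted p 2.79e-10). The others that rose were Hhex and Pou3f4, the latter by 0.89. Nkx2-2 fell by 1.30, Pax6 by 0.95 and Irx1 by 0.78. Both Nkx2-2 and Pax6 act in several islet cell types.

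In beta cells 3 of these 25 factors rose, against 18% of all probe sets, 6 fell, against 13.4%, and 16 did not pass. The median log2 change was 0.09. The rises were Foxa1 (0.51), Hnf4a (0.51) and Gata6 (0.36). Myt1 fell by 0.97, Nkx2-2 by 0.43 and Isl1 by 0.32. Pdx1, at 3276 in beta cells with DMSO, fell by 0.20 (adjusted p 0.0367).

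Of 15 listed genes of prohormone processing, 14 were on the array. In alpha cells 3 rose, against 18.3% of all probe sets, 3 fell, against 20.2%, and 8 did not pass. The median log2 change was 0.09. The rises were the carboxypeptidase Cpz, from 36.2 to 189 (log2 2.38), the protease Ctsl (0.95) and the convertase inhibitor Pcsk1n (0.41). The falls were Scg5, a chaperone of the convertase Pcsk2, by 0.70, the amidating enzyme Pam by 0.49 and carboxypeptidase E (Cpe) by 0.28. The convertase Pcsk1, which cuts proinsulin, averaged 38.6 and 42.3 in alpha cells, against 3401 and 3756 in beta cells.

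In beta cells 2 processing genes rose, Ctsl (0.54) and Ppib (0.19), and 4 fell, Cpe by 0.45, Scg5 by 0.42, Pam by 0.32 and Pcsk1n by 0.27. The other 8 did not pass, and the median log2 change was -0.06. Of all probe sets, 18% rose and 13.4% fell in beta cells.

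Of 24 listed receptors and signalling partners of the hormones, 21 were on the array. In alpha cells none of the 19 that could be read rose and 2 fell, the insulin receptor substrates Irs1 by 1.47 and Irs2 by 0.59, with a median log2 change of -0.02. In beta cells 2 of 20 rose, Ramp1, a partner of the calcitonin receptor in amylin receptors, by 1.04, and the neuropeptide Y receptor Npy1r by 0.32. Irs1 fell by 0.35 there, and the median log2 change was 0.14. Of all probe sets, 18.3% rose and 20.2% fell in alpha cells, and 18% rose and 13.4% fell in beta cells.

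Of 47 other peptide hormones and granule proteins, 39 were on the array. In alpha cells 5 rose, against 18.3% of all probe sets, 6 fell, against 20.2%, and 28 did not pass. The median log2 change was 0.08. Chromogranin A (Chga), a granule protein, rose from 5517 ± 130 to 12512 ± 305 (SD, n = 3), a log2 change of 1.18 (adjusted p 4.11e-09). Scg2 rose from 14687 to 20000 on all arrays, so that its log2 change of 0.45 is a limit. Nmb (0.44), Scg3 (0.35) and Insl5 (0.23) also rose. Adrenomedullin (Adm) fell by 2.17, from 436 to 98.7, Igf1 by 1.04 and Pomc by 0.73.

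In beta cells 8 of 38 other peptide genes rose, against 18% of all probe sets, 4 fell, against 13.4%, and 26 did not pass. The median log2 change was 0.12. Guanylin (Guca2a) rose by 1.07, Adm by 0.69 and the natriuretic peptide Nppb by 0.58. The falls were Sct by 0.42, Chga by 0.29, Chgb by at least 0.23, its DMSO arrays being at 20000, and Nucb2 by 0.21. The changes of Chga in the 2 lines differed by 1.47 on the log2 scale (beta minus alpha -1.47, adjusted p 3.82e-08).

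**Figure D4:**
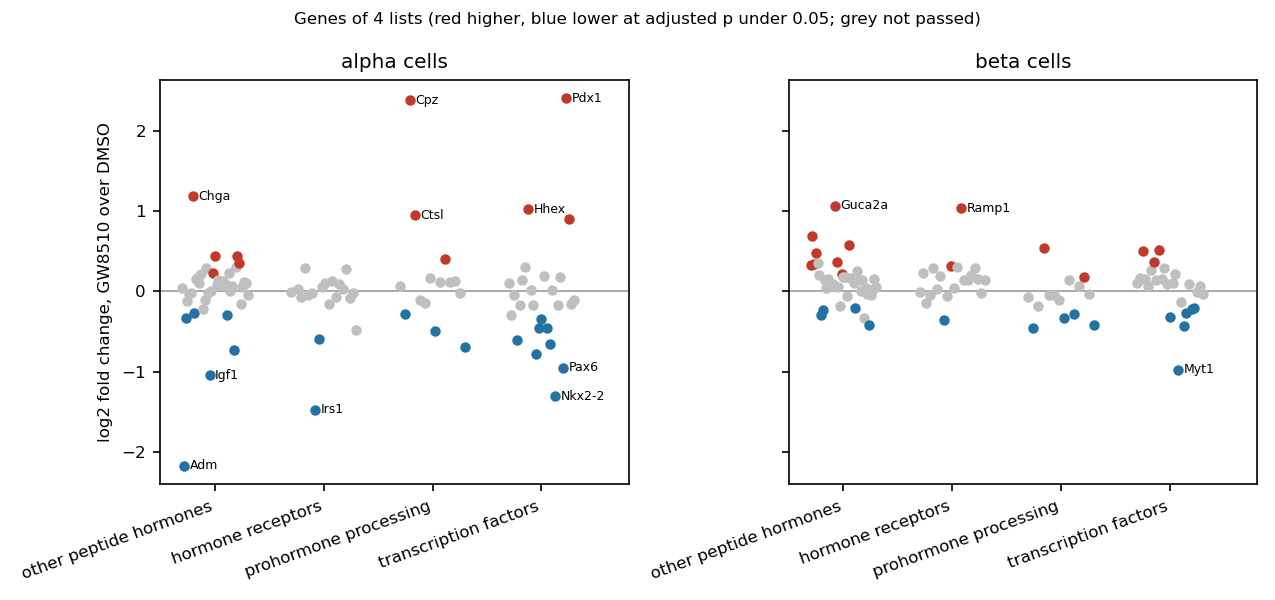
Log2 fold change with GW8510 over DMSO for the genes of 4 lists in alpha cells (left) and beta cells (right), 1 point for each gene; red is higher and blue lower at an adjusted p under 0.05, grey did not pass, and called genes that changed by at least 0.9 are named. Pdx1 (2.40) and Cpz (2.38) are highest and Adm (-2.17) lowest in alpha cells, while in beta cells Guca2a (1.07) is highest and Myt1 (-0.97) lowest.

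Genes with profiles most like a hormone gene were found by the root mean square difference of log2 intensity, each gene centred on its own mean, over the 12 arrays and 12254 other genes. A low value means a similar pattern and carries no test. Ins2, Iapp and Npy were at 20000 on all beta arrays and Sst on those with GW8510, so the differences and ranks for these genes rest on limits. Nearest to Ins2 were Cdhr1 (0.21), Npy (0.26) and Rps4l (0.31), and nearest to Iapp were Cpn1 (0.30), Pcsk1 (0.50) and Cdhr1 (0.52). Cpn1 had group means of 43.1 and 97.8 in alpha cells and 3961 and 6551 in beta cells, with DMSO and GW8510 in turn.

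The genes nearest to Sst were Cltrn (0.22), Npy (0.34) and Igf2 (0.47), and to Gast they were Pcsk1 (0.32), Epha7 (0.32) and Meox2 (0.36). For Cartpt they were Ntm (0.35), Castor2 (0.42) and Tenm4 (0.43). Group means of Ntm were 350 and 73.0 in alpha cells and 56.8 and 45.4 in beta cells. For Gcg, whose alpha values are limits, they were Dusp3 (0.09), Slc7a6 (0.11) and Ets2 (0.13).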

How the data were processed

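RNA of 12 cultures was hybridised to Affymetrix mouse expression arrays. The deposited intensities are linear, the submitters' processing notes name RMA, with a version not given in the sources used here, and the values at 20 and 20000 are assumed to be limits set by the authors. Source names of some GW8510 arrays end in another number, and title, description and compound label were followed. Of 22690 probe sets, 64 controls and 451 at 1 limit on all arrays were left out, and 22175 were tested. Symbols came from the platform annotation (20380 probe sets with 1, 691 with several, 1555 with none). Log2 was taken with no pseudocount. Contrasts of the 4 groups were fitted by limma 3.58.1 (R 4.3.3) with empirical Bayes (prior 3.30 degrees of freedom, 8 residual) and Benjamini-Hochberg adjustment, and was tested on simulated data. The study's methods name no test for the arrays.

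The members and lists were chosen with earlier results of these data known. Named are all members, up to 3 list genes with the largest called changes in a line, any called in a direction that 5 or fewer of a list share, and 3 genes most like each member whose group means span at least 1 on the log2 scale. Genes of several probe sets, members aside, were read from the brightest. Marker genes are named beside results they touch. Alternatives were a quantile normalization of the deposited values and 1 probe set or the mean of probe sets per gene. Others were a filter on the dimmest 25%, values at a limit as missing, a pseudocount of 16 and the arrays of 1 line. The rest were another estimate of spread, array weights, a block on replicate number and the removal of each array in turn. The union of missing limits and 1 line was chosen after seeing the data. Ins1 was not analysed here.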

Additional observations from a re-analysis of the deposited data

Results flagged for a closer look

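The effect of GW8510 on Cartpt differed between the lines by 2.26 on the log2 scale (beta minus alpha, SE 0.23, limma adjusted p 2.68e-05). It passed in all 21 other settings run for this difference. With DMSO, Cartpt averaged 763 in alpha cells and 136 in beta cells, and with GW8510 it averaged 108 and 94.1. All of these means lay above 20, the lowest value in the data. The part of the starting level in the difference between the lines was not tested.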

How the results depend on the processing

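No result changed direction among those that passed in either setting. Of the single probe set results under other settings, 1077 kept their side of the threshold, 19 gained it and 19 lost it. Ins2, Iapp (3 probe sets) and Cartpt in alpha cells and Gcg in beta cells passed in every setting run for them. Genes lower in alpha cells numbered 2 instead of 1 with quantile normalization and with array weights (Cck added), and 1 to 2 with each array left out. In beta cells with the arrays of the line alone, 2 genes were higher and 0 lower, Sst added and Cartpt lost. With each array left out 0 to 1 were lower. For the difference between lines, array weights gave 2 higher and 1 lower, and 17.4% of all probe sets lower in place of 10.5%, and leaving out an array gave 1 to 2 higher. With values at a limit as missing, beta over alpha cells gave 2 higher and 1 lower with DMSO, and 2 higher and 0 lower with GW8510, since the members at 20000 drop out. Array weights gave 4 lower with GW8510, and leaving out an array 1 to 2. Arrays with the same replicate number showed no shared deviation from their group means (r from -0.134 to 0.0603). With so few arrays in a group, this cannot show whether the cultures were paired. The study describes the vehicle controls of alpha cells as matched. A replicate block gave 2 genes higher and 1 lower in alpha cells, Pyy being lost (adjusted p 0.0591), and 1 and 1 in beta cells, with 17.2% and 18.5% of all probe sets higher and lower in alpha cells. Signal at 20000 limits Ins2, Iapp (3 probe sets) and Sst in beta cells and Gcg in alpha cells, and signal at 20 limits the fourth Iapp probe set in alpha cells with DMSO.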
